A study of Mus musculus with 32 samples.

Results

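The extracellular signal-regulated kinase (ERK) pathway was followed here through 10 transcripts that are commonly read as its output, out of 24646 genes measured on each array. They were chosen by name, because GPR146, the G-protein-coupled receptor deleted in the knockout, is reported to signal through ERK, and each of the 10 had 1 row in all 4 tables. The immediate-early genes were Egr1, Fos, Junb, Ier3 and Myc, the phosphatases Dusp1 and Dusp6, the Sprouty inhibitors Spry2 and Spry4, and the ETS factor Etv5. The arrays came from liver, epididymal white fat (eWAT), inguinal white fat (iWAT) and brown fat (BAT) of Gpr146 wild-type (WT) and Gpr146 knockout (KO) mice. All mice were males of 20 weeks that had been on a high fat diet (HFD) for 3 months and were fasted overnight before the tissues were taken. The knockout was whole-body, with no Cre driver, and each tissue had 4 WT and 4 KO mice, 1 array per mouse, 32 arrays in all.

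In the ERK pathway, receptors pass a signal through RAS and a chain of kinases to ERK, which phosphorylates transcription factors in the nucleus. Immediate-early genes are transcribed within minutes of such a signal without new protein synthesis, and their transcripts decay quickly. Feedback genes come next, among them phosphatases that switch off the kinases and Sprouty proteins that damp receptor signalling, so that transcripts of both kinds are used as a record of recent pathway activity. Many of these genes also respond to other stimuli, including cAMP, stress and tissue dissection.

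Values are log2 intensities from Affymetrix Mouse Gene 2.1 ST arrays, and a difference is KO minus WT on that scale, taken within 1 tissue because the tissues were deposited as separate tables. The targeted gene followed the labels. Gpr146 was lower in every KO array than in every WT array of the same tissue, and with limma it fell by 1.77 in liver (adjusted p = 6.55e-06) and by 1.53 in eWAT (adjusted p = 0.00823), while the difference was -1.55 in iWAT (adjusted p = 0.221) and -1.16 in BAT (adjusted p = 0.0727). The titles of the 4 liver KO samples name WT in part, whereas their genotype and source entries give KO, as the Gpr146 values do. The tissues carried their defining markers: in WT, Alb was at 11.90 in liver and 2.11 in BAT, Ucp1 at 11.47 in BAT and 2.22 in liver, and the 9 adipocyte markers summed to 7190 to 8107 in eWAT and 167 to 340.6 in liver, on tables that may have been normalized apart. Bulk tissue cannot tell fewer cells of a type from less RNA per cell.

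Of the 40 comparisons of 1 gene in 1 tissue, 1 passed the threshold, an adjusted p below 0.05 over all genes of the tissue in limma: Myc fell in eWAT. In eWAT 9 of the 10 genes had a difference below 0, against 43.5% of all genes, and their median difference was -0.46, against 0.03 over all genes. In BAT 8 of the 10 were below 0, against 49.2% of all genes, with a median of -0.57 against 0.00. In liver 7 of the 10 (46.9% of all genes) and in iWAT 8 of the 10 (46.8% of all genes) were below 0, and the medians were -0.13 in both, against 0.01 and 0.02 over all genes. The 10 genes are not independent of each other, as the correlations given further on show, so these counts describe the set and carry no test. Without KO replicate 4 the medians were -0.29 in eWAT, -0.44 in BAT and 0.01 in liver, and after quantile normalization the iWAT median was 0.00.

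**Figure D1:**
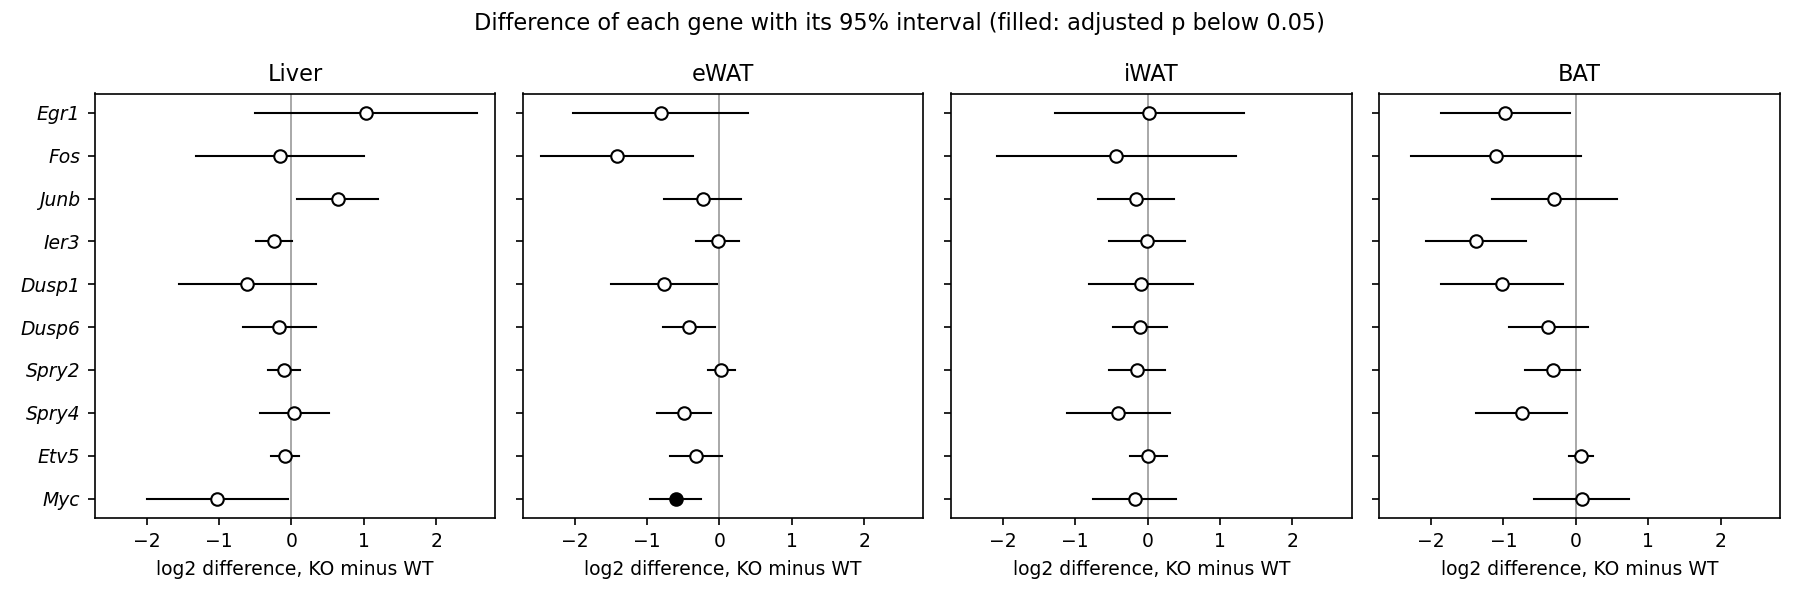
Difference (KO minus WT, log2, horizontal axis) of each of the 10 genes in the 4 tissues, with its 95% interval from limma over 4 WT and 4 KO arrays; a filled point marks an adjusted p below 0.05. Only Myc in eWAT is filled, at -0.60, and the intervals of Egr1 and Fos are the widest in most panels.

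The immediate-early transcription factors Egr1, Fos and Junb had lower KO than WT means in eWAT, and none of the 3 passed the threshold. Fos, which pairs with JUN proteins to form AP-1, was at 6.92, 6.98, 8.28 and 6.98 in the 4 WT arrays of eWAT and at 5.55, 6.75, 6.53 and 4.66 in the 4 KO arrays. The groups did not overlap, and WT replicate 3 stood above the other WT arrays. The difference was -1.41 ± 0.468 (SE, n = 4 against 4), a 2.66-fold lower level, with an adjusted p of 0.0733 in limma. The two-sided exact permutation p was 0.0286, the smallest that 70 relabelings of 4 against 4 arrays can give. Egr1, a zinc-finger factor induced by growth factors, was at 6.16, 5.75, 7.33 and 5.62 in WT and 5.44, 6.02, 6.28 and 3.85 in KO, with overlapping groups and a difference of -0.81 (adjusted p = 0.348 in limma). Junb, an AP-1 subunit, ranged from 5.30 to 5.93 in WT and from 4.82 to 5.90 in KO.

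Myc, the growth-promoting transcription factor, was at 5.95, 6.26, 6.48 and 6.47 in WT eWAT and at 5.48, 6.00, 5.44 and 5.81 in KO eWAT. WT replicate 1 lay just under KO replicate 2, and the other WT arrays lay above every KO array. Myc fell by 0.60 ± 0.158 (SE), 1.52-fold, with an adjusted p of 0.0317 in limma and an exact permutation p of 0.0571. This call was made in a tissue in which 15.2% of all genes passed and 10.7% passed as lower in KO, so 1 of 10 lower is close to the background. Of the genes called in eWAT 70% were lower, and 51.1% after quantile normalization. The Myc call was lost with quantile normalization (adjusted p = 0.0783 in limma), and when 1 array was left out it held in 2 of 8 cases, without WT replicate 1 and without KO replicate 2 (adjusted p from 0.00818 to 0.094). Ier3, an immediate-early gene that prolongs ERK phosphorylation, was at 5.16 to 5.42 in WT and 5.10 to 5.69 in KO eWAT, a difference of -0.02 (95% interval -0.32 to 0.27).

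**Figure D2:**
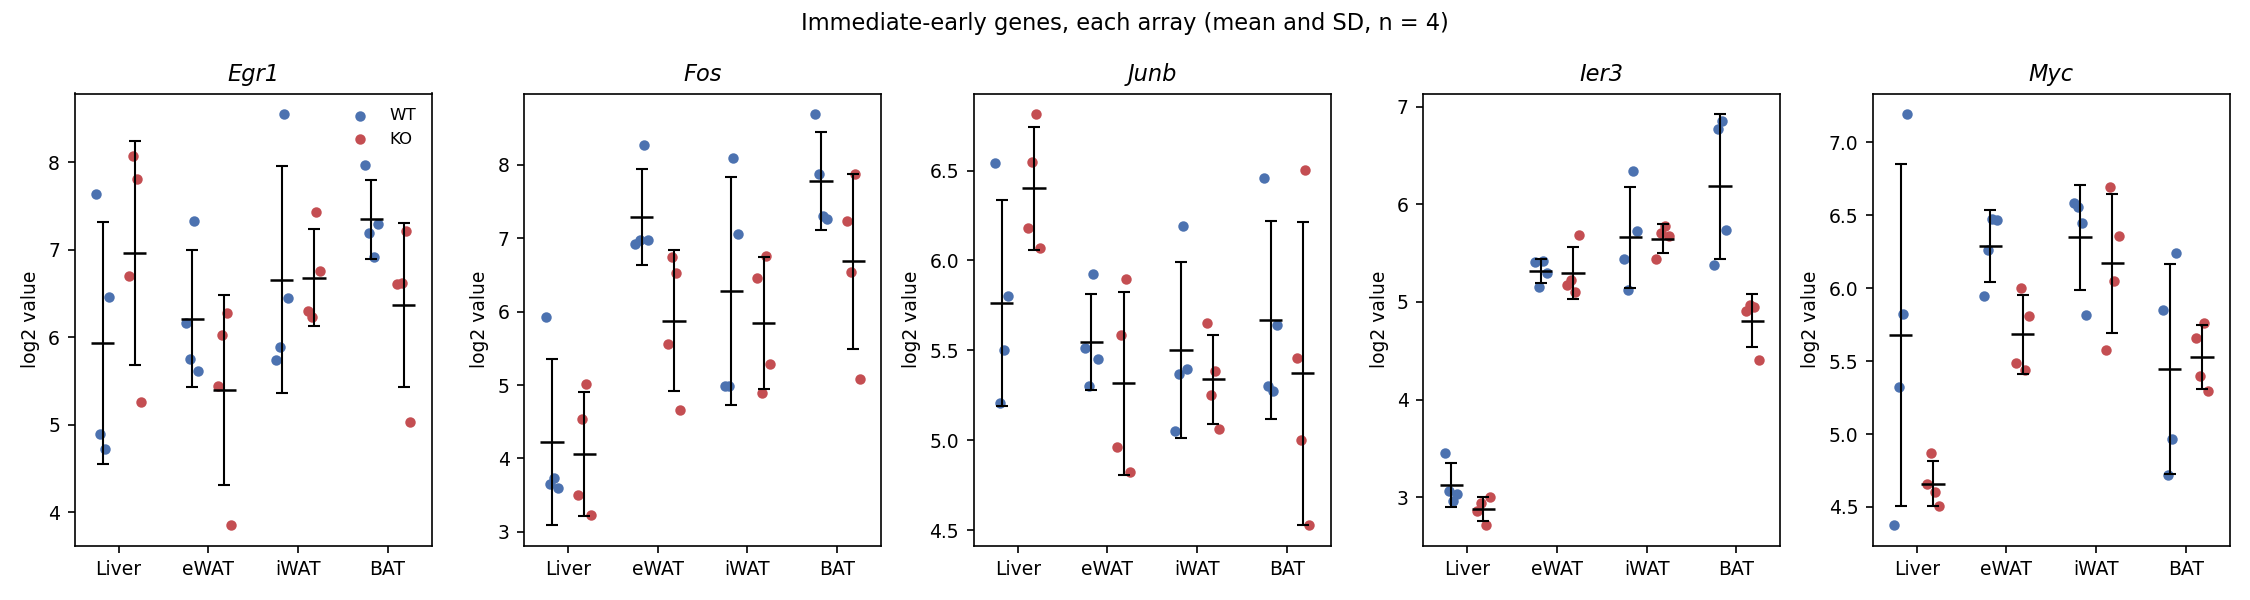
Log2 value (vertical axis) of the 5 immediate-early genes on every array, WT in blue and KO in red, by tissue (horizontal axis), with the mean and SD of 4 arrays in black. WT and KO points separate for Fos in eWAT and for Ier3 in BAT.

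Among the feedback phosphatases in eWAT, Dusp6, which dephosphorylates ERK in the cytoplasm, was at 4.46, 4.63, 4.74 and 4.51 in WT and at 4.01, 4.46, 4.43 and 3.73 in KO. The groups did not overlap, although WT replicate 1 and KO replicate 2 were almost equal. The difference was -0.43 ± 0.160 (SE), with an adjusted p of 0.108 in limma and an exact permutation p of 0.0286. Fos and Dusp6 were the 2 of 10 genes without overlap in eWAT, where 13.0% of all genes did not overlap with KO lower. Dusp1, a nuclear phosphatase of the stress and ERK kinases, was at 8.07, 8.37, 8.93 and 7.86 in WT and 7.16, 8.30, 7.87 and 6.86 in KO, and differed by -0.76 (adjusted p = 0.152). At an unadjusted p below 0.05 in limma, 5 of 10 genes were lower in eWAT (Dusp1, Dusp6, Fos, Myc and Spry4), against 17.4% of all genes.

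The Sprouty genes encode inhibitors of receptor tyrosine kinase signalling. Spry4 was at 5.28, 5.93, 5.91 and 5.60 in WT and at 5.27, 5.46, 5.13 and 4.89 in KO, a difference of -0.49 ± 0.168 (SE; adjusted p = 0.0813 in limma, exact permutation p = 0.0571). WT replicate 1 alone lay within the KO range. Spry2 was at 5.29 to 5.60 in WT and 5.37 to 5.46 in KO, a difference of 0.02 (95% interval -0.17 to 0.21). Etv5, an ETS factor that ERK signalling induces, was at 3.51 to 3.69 in WT and 2.74 to 3.56 in KO, where KO replicate 4 at 2.74 lay far below the others. Whether Spry2 and Spry4 differ in response was not tested.

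**Figure D3:**
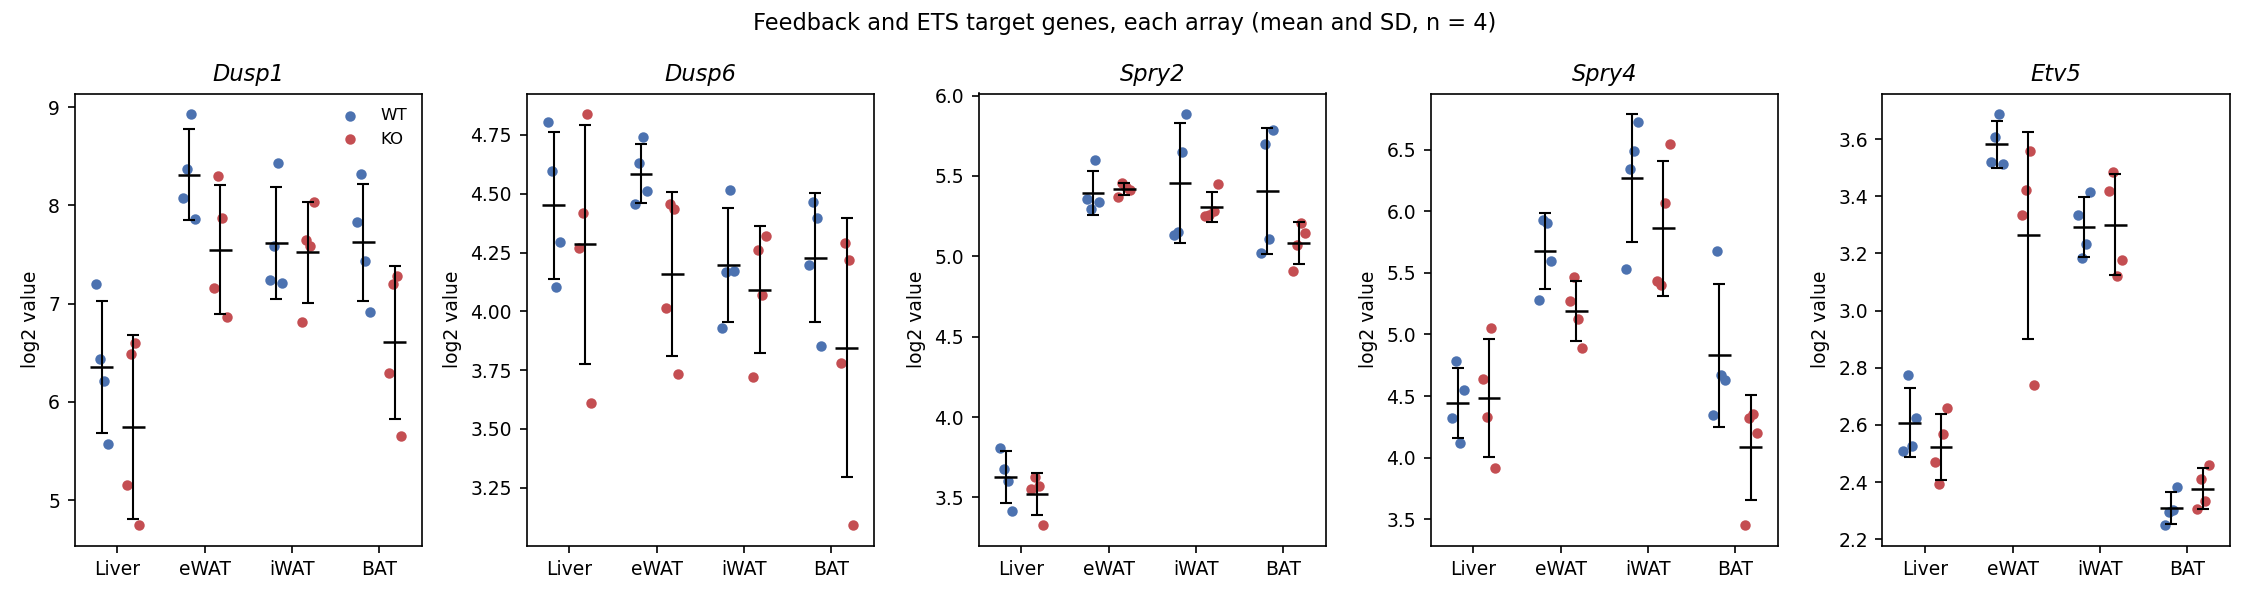
Log2 value (vertical axis) of the phosphatase, Sprouty and Etv5 transcripts on every array, WT in blue and KO in red, by tissue (horizontal axis), with the mean and SD of 4 arrays in black. In eWAT the WT and KO points of Dusp6 just separate, with the lowest WT and the highest KO array both near 4.46, while those of Spry2 overlap.

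Other measures moved with the eWAT samples. Of 10 macrophage markers, 8 were lower in KO eWAT (limma, adjusted p below 0.05), and their summed linear level was 4671 to 5421 in WT and 955.1 to 3905 in KO. KO replicate 2, at 3905, was the KO array nearest to WT. Clec4f and Marco, markers of resident liver macrophages and of some tissue macrophages, were below the median gene. Of 6 fibroblast and progenitor markers 5 were lower (2676 to 3186 in WT and 1316 to 2485 in KO), and of 9 adipocyte markers 8 were higher and 1 was lower. Of 7 heat shock genes, used as a sign of tissue handling, 5 were lower, with sums of 430.9 to 648.2 in WT and 286.4 to 391.6 in KO. The part of these shifts in the values of the 10 genes was not tested. Without KO replicate 2, 14.2% of all genes passed as lower in eWAT, and 5 of the 10 did: Myc, Fos (adjusted p = 0.0247), Dusp1 (0.0322), Spry4 (0.0356) and Dusp6 (0.0394). Leaving out WT replicate 1 instead gave 2 of the 10, where 2300 of all 24646 genes passed. Leaving out any other single eWAT array gave 0 of the 10, where 1448 to 3211 of all genes passed.

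In BAT no gene of the 10 passed the threshold in limma, where 0.0284% of all genes did, and 4 were lower at an unadjusted p below 0.05 (Dusp1, Egr1, Ier3 and Spry4), against 7.44% of all genes. The methods' t-test called 0 of the 10 after adjustment and 1 before it, against 0 and 2803 of all 24646 genes. The largest difference was that of Ier3, at 5.38, 6.78, 6.85 and 5.73 in WT and 4.90, 4.97, 4.95 and 4.40 in KO. The groups did not overlap, in a tissue where 3.92% of all genes did so with KO lower, and WT replicates 2 and 3 stood above the other WT arrays. Ier3 differed by -1.38 ± 0.310 (SE), 2.60-fold, with an adjusted p of 0.132 in limma (0.045 without WT replicate 1, 0.354 without WT replicate 2) and an exact permutation p of 0.0286.

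Skeletal muscle markers were high on 3 BAT arrays: their summed linear level was 1085 in WT replicate 2, 1839 in WT replicate 3 and 2035 in KO replicate 2, against 53.66 to 104.9 on the others. Ier3 was high on the first 2 of these and low, at 4.97, on KO replicate 2. With the 3 arrays left out the Ier3 difference was -0.80 (adjusted p = 0.574 in limma, 2 WT against 3 KO arrays). The 7 heat shock genes summed to 235.9, 745.4, 780.5 and 798.4 in WT BAT and to 183.7 to 228.5 in KO BAT, and 0 of 7 passed the threshold in limma (6 at an unadjusted p below 0.05, 0 by the methods' t-test after adjustment). Their part in the Ier3 values was not tested.

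The other genes of BAT had overlapping groups, and KO replicate 4 was the lowest array for 6 of the 10 genes. Dusp1 was at 7.83, 8.32, 7.43 and 6.91 in WT and at 6.30, 7.20, 7.28 and 5.65 in KO, a difference of -1.02 ± 0.381 (SE; adjusted p = 0.295 in limma). Egr1 was at 7.97, 7.19, 6.92 and 7.30 in WT and at 6.60, 6.62, 7.21 and 5.04 in KO, a difference of -0.98 ± 0.401 (SE; adjusted p = 0.345 in limma). In both genes KO replicate 4 was the lowest array and KO replicate 3 lay within the WT range. Spry4 differed by -0.75 (adjusted p = 0.302 in limma) and Fos by -1.10 (adjusted p = 0.433). Without KO replicate 4 the Egr1 difference was -0.53 and the Fos difference -0.57. Etv5 and Myc were slightly higher in KO BAT, by 0.07 and 0.08 (95% intervals -0.10 to 0.24 and -0.57 to 0.74).

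In liver, the tissue with the widest spread of Egr1, 0 of 10 genes passed in limma, against 0.661% of all genes, and 2 had an unadjusted p below 0.05, against 13.3% of all genes. The methods' t-test called 0 of the 10 before and after adjustment, against 2901 and 2 of all 24646 genes. The 2 genes moved in opposite directions. Junb was at 6.54, 5.21, 5.50 and 5.80 in WT and at 6.18, 6.55, 6.81 and 6.07 in KO, a difference of 0.64 ± 0.254 (SE; adjusted p = 0.308 in limma). Myc was at 4.38, 5.32, 5.83 and 7.19 in WT and at 4.66, 4.87, 4.60 and 4.51 in KO, a difference of -1.02 ± 0.442 (SE; adjusted p = 0.351 in limma). WT Myc values were spread far apart (SD 1.18) while the KO arrays lay close together (SD 0.152). Egr1 was at 7.64, 4.90, 4.72 and 6.46 in WT and at 6.69, 8.07, 7.81 and 5.26 in KO, a difference of 1.03 (95% interval -0.51 to 2.57).

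No difference of the feedback genes was detected in liver at this spread. Fos in WT liver was at 5.92 in replicate 1 and at 3.59 to 3.73 in the others, against 3.22 to 5.01 in KO. Dusp1 was at 5.57 to 7.20 in WT and 4.75 to 6.60 in KO, and Dusp6 at 4.10 to 4.81 in WT and 3.61 to 4.84 in KO. The 95% intervals of the difference were -1.55 to 0.34 for Dusp1, -0.67 to 0.34 for Dusp6, -0.32 to 0.11 for Spry2, -0.43 to 0.52 for Spry4 and -0.28 to 0.11 for Etv5, widest for Dusp1. Of 7 heat shock genes 4 were lower in KO liver, with sums of 536.5 to 988.1 in WT and 300.4 to 359.3 in KO.

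In iWAT limma passed 0 of all genes, 15.4% of all genes had an unadjusted p below 0.05, and 0 of the 10 did. The methods' t-test called 1 of all genes after adjustment. Egr1 was at 5.74, 5.89, 8.55 and 6.45 in WT and at 6.30, 6.23, 7.43 and 6.76 in KO, a difference of 0.02 (95% interval -1.28 to 1.33). Fos was at 4.99, 4.99, 8.10 and 7.05 in WT and at 6.45, 4.90, 6.76 and 5.28 in KO, a difference of -0.43 (95% interval -2.08 to 1.22). WT replicate 3 was the highest array of both genes and of 6 of the 10 in iWAT, as it was of 8 of the 10 in eWAT. The width of these intervals allows changes as large as those seen in eWAT. B cell markers in iWAT summed to 62.81 to 1730 in WT and 80.57 to 1392 in KO, and T cell markers to 58.12 to 1144 and 55.53 to 1007. Their part in these values was not tested.

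The spread between mice of 1 genotype was itself large for these genes. The median SD within a genotype over the 10 genes was 0.447 in liver, 0.270 in eWAT, 0.404 in iWAT and 0.546 in BAT, against 0.134, 0.152, 0.196 and 0.154 over all genes. In each tissue 9 of the 10 genes lay above the median SD of all genes. The smallest SD was that of Etv5 in liver, iWAT and BAT and of Spry2 in eWAT, and the largest that of Egr1 in liver and eWAT and of Fos in iWAT and BAT. The WT mean of Etv5 lay below the array median in liver, iWAT and BAT and above it in eWAT.

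This spread was shared between genes. Each array's deviation from the mean of its tissue and genotype was correlated between genes over the 32 arrays, with exact permutation of the mouse numbers within a genotype, the 4 tissues of a mouse kept together as the labels number them, and adjustment over 45 pairs. The test treats same-numbered arrays as 1 mouse, and the arrays of 1 mouse share its handling. Of the 45 pairs, 7 passed, and the smallest p that the 576 permutations allow is 0.00174. Egr1 and Fos gave r = 0.85 and rho = 0.81 (exact permutation p = 0.00174 for both, adjusted p = 0.0195 and 0.0156). Egr1 and Junb gave r = 0.79 and rho = 0.79 (exact permutation, adjusted p = 0.0195 and 0.0156), and Fos and Junb r = 0.83 and rho = 0.77 (exact permutation, adjusted p = 0.026 for both). These 3 pairs were as tight within each tissue, at 0.77 to 0.95.

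The 2 phosphatases were the closest pair. Dusp1 and Dusp6 gave r = 0.88 and rho = 0.88 (exact permutation, adjusted p = 0.0195 and 0.0156), and r was 0.84 in liver, 0.92 in eWAT, 0.93 in iWAT and 0.91 in BAT. Fos and Dusp1 gave r = 0.65 and rho = 0.65 (exact permutation, adjusted p = 0.0195 and 0.0156), but r was 0.22 within iWAT. Spry2 and Spry4 gave r = 0.57 and rho = 0.60 (exact permutation, adjusted p = 0.026 and 0.0156), and Dusp6 and Spry4 r = 0.52 and rho = 0.59 (exact permutation, adjusted p = 0.0335 for both). Without the 2 arrays farthest from the median of the first gene, r of the 7 pairs was 0.79, 0.73, 0.79, 0.86, 0.58, 0.63 and 0.57, in the order given. Egr1 with Dusp1 (r = 0.71) and with Dusp6 (r = 0.70) did not pass (exact permutation, adjusted p = 0.0521 and 0.0625). Fos with Dusp6 (r = 0.60), Junb with Dusp1 (r = 0.54) and Junb with Dusp6 (r = 0.50) did not pass either. Their adjusted p were 0.0521, 0.222 and 0.293 (exact permutation), and by rho Fos with Dusp6 passed (adjusted p = 0.0488).

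Myc and Etv5 did not follow the others. The r of Myc with the other genes was -0.37 to 0.04 and that of Etv5 -0.26 to 0.10, and none of their pairs passed. Within eWAT, however, the r of Etv5 with Egr1, Fos, Junb, Dusp1 and Dusp6 was 0.74 to 0.90. KO replicate 4 was the lowest eWAT array of each of these genes. Within BAT the same pairs were at -0.87 to -0.53, within liver at -0.58 to -0.23 and within iWAT at -0.52 to -0.04, with 8 arrays each. In these 3 tissues the WT mean of Etv5 lay below the array median. Myc, the 1 gene that passed in the comparison of genotypes, was thus not among the genes that varied together. Ier3 correlated with Egr1 at 0.20 and with Fos at 0.25.

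**Figure D4:**
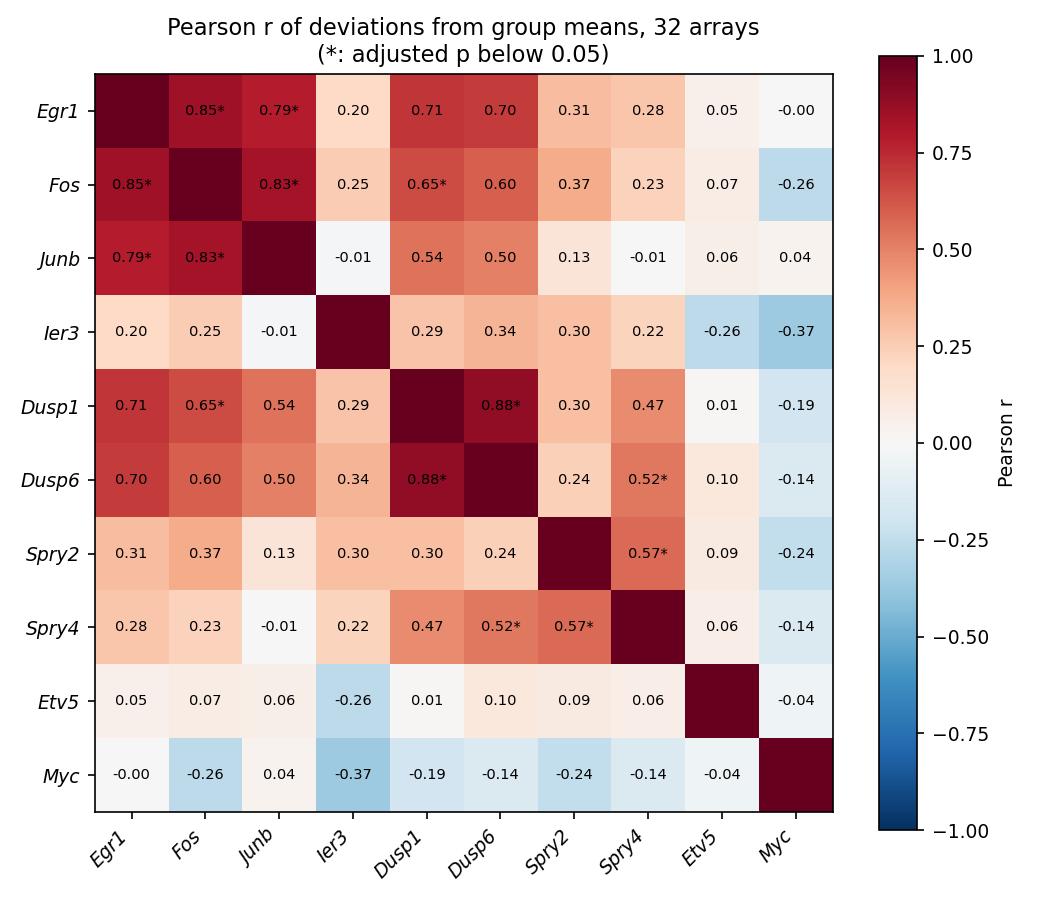
Pearson r (colour and number) between the 10 genes, of each array's log2 deviation from the mean of its tissue and genotype, over 32 arrays; a star marks an adjusted p below 0.05 by exact permutation. The 10 pairs among Egr1, Fos, Junb, Dusp1 and Dusp6 have r between 0.50 and 0.88, and 5 of them are starred. The Etv5 and Myc rows are near 0 or below.

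**Figure D5:**
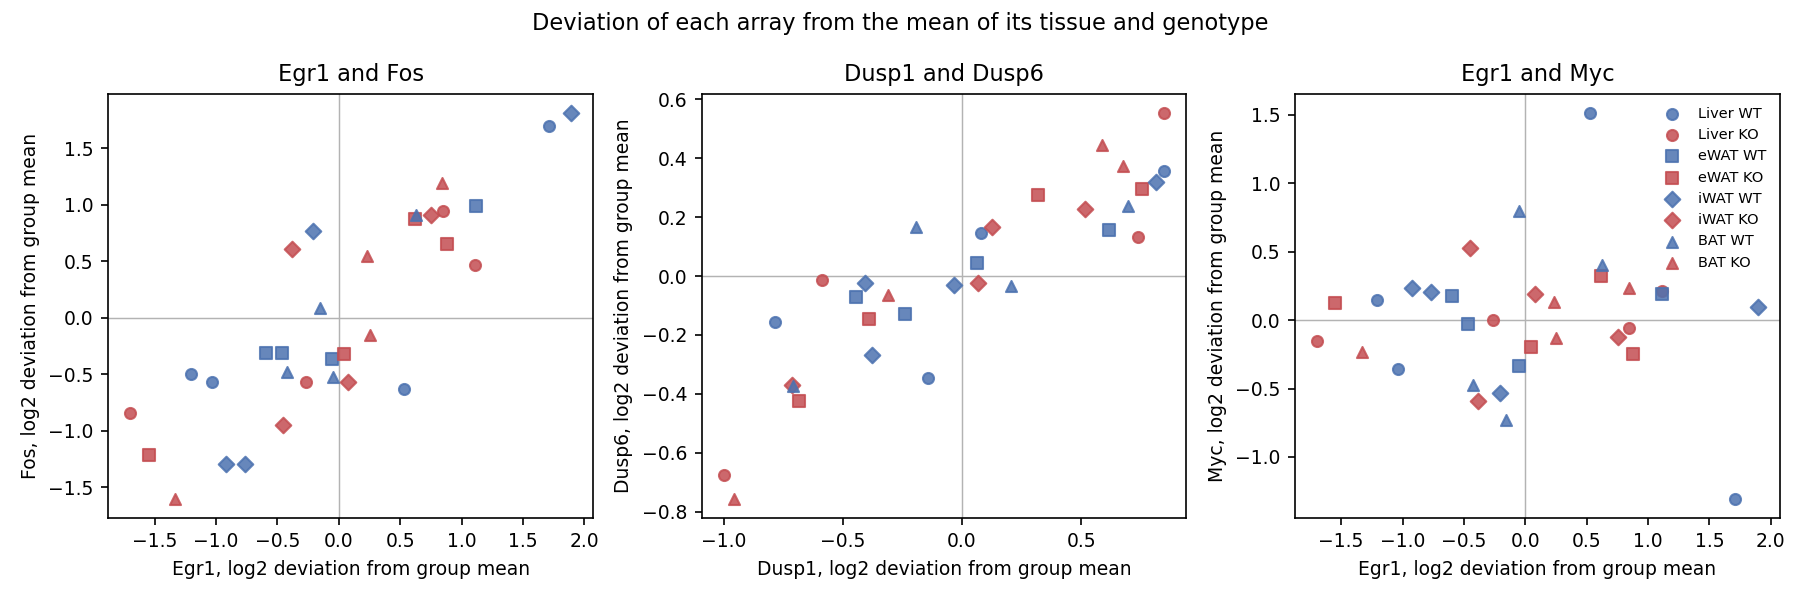
Log2 deviation of each of the 32 arrays from the mean of its tissue and genotype, for Egr1 against Fos, Dusp1 against Dusp6 and Egr1 against Myc; colour gives the genotype and the symbol the tissue. The first 2 panels (r = 0.85 and 0.88) rise from lower left to upper right in both genotypes, and the last (r = 0.00) does not.

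Averaged over Egr1, Fos, Junb, Dusp1 and Dusp6, the deviation changed sign between tissues for 6 of the 8 mouse numbers. KO replicate 3 was above the group mean in every tissue, at 0.72 in liver, 0.54 in eWAT, 0.35 in iWAT and 0.84 in BAT. KO replicate 4 deviated by -0.91 in liver, -0.87 in eWAT and -1.10 in BAT, but by 0.00 in iWAT. It was the lowest of the 8 arrays for 5 of the 10 genes in liver and for 7 in eWAT. WT replicate 3 deviated by 0.65 in eWAT and 1.11 in iWAT, and by -0.49 in liver and -0.26 in BAT. Leaving out 1 mouse number or 1 tissue at a time moved r of Egr1 and Fos between 0.82 and 0.89, and that of Dusp1 and Dusp6 between 0.85 and 0.91.

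Of all genes, those whose deviations were most like Egr1 were Fos (r = 0.85), Zfp36 (0.84), Ier2 (0.83), Junb (0.79) and Jun (0.76), over the 32 arrays. The genes most like Dusp6 were Dusp1 (r = 0.88), Jun (0.76), Errfi1 (0.74), Zfp36 (0.74) and Irf2bp2 (0.73). Zfp36 and Ier2 are immediate-early genes, Jun is an AP-1 subunit, and Errfi1 encodes a feedback inhibitor of the epidermal growth factor receptor. These values are a description of the ranking over all genes.

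The promoter windows of Fos, Junb, Dusp1 and Dusp6 are shown because Fos with Junb, Fos with Dusp1 and Dusp1 with Dusp6 varied together. By r, Fos with Dusp6 and Junb with either phosphatase did not pass. RefSeq windows (build GRCm38.p6, 250 bases before to 50 after the annotated start) were matched by symbol, and those of 7 of the 10 genes were used. Egr1, Spry4 and Myc are named only. The windows lie at chr12:85473640-85473939 on the plus strand (Fos), chr8:84978699-84978998 on the minus strand (Junb), chr17:26508423-26508722 on the minus strand (Dusp1) and chr10:99262981-99263280 on the plus strand (Dusp6), and are written 5′ to 3′ on the strand of the gene. Capitals mark TGACG, the core of the cAMP response element, on either strand, TGANTCA, the AP-1 site, on either strand, and TATAAA, the TATA box, on the gene strand.
Fos: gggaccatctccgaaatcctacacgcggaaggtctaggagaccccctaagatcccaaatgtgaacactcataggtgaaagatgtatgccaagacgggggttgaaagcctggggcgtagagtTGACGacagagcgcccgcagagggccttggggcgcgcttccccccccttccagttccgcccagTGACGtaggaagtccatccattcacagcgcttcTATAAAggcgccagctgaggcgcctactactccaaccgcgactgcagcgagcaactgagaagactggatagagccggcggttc
Junb: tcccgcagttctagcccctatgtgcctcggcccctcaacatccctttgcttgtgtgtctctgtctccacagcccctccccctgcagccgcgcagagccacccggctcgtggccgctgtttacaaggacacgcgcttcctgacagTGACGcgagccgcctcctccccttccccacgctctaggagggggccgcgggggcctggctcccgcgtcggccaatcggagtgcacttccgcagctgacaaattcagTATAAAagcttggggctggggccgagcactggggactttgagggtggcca
Dusp1: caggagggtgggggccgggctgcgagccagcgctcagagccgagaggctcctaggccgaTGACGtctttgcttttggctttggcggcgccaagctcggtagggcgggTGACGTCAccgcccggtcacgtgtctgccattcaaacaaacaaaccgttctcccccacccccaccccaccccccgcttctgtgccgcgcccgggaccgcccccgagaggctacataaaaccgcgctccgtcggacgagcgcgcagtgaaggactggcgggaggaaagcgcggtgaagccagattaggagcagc
Dusp6: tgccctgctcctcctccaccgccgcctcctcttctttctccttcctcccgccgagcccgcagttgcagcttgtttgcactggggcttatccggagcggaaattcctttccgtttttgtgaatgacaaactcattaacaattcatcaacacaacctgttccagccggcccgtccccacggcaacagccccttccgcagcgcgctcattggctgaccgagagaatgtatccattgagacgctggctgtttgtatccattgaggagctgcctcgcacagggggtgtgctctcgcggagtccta

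Fos held the TGACG core at positions -129 and -66 and the TATA box at -33, counted from the annotated start at 0. Junb held the core at -106 and the TATA box at 0. Dusp1 held the core at -191 and the full palindrome TGACGTCA at -143, which contains the core on each strand. Dusp6 held none of the 3 motifs. Of 32851 windows of all genes, 20.8% held the core, 1.79% the palindrome, 7.81% TGANTCA and 8.32% TATAAA. The ETS core CCGGAA was found in Spry2 only among the 7 genes (14.9% of all windows), and the EGR core GTGGGCG (7.97%, both strands) and the serum response element, searched by its name as the CArG box (1.63%), in none. These are matches of letters in 300 bases and say nothing about binding. Sites more than 250 bases before the start, and the promoters of Egr1, Spry4 and Myc, were not searched.

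The rest of the pathway was read from 4 lists. In eWAT, 9 of 29 genes of the ERK cascade passed in limma, 3 higher and 6 lower, with a median difference of -0.18, where 15.2% of all genes passed. Rps6ka2, a ribosomal S6 kinase downstream of ERK, fell by 1.29 (adjusted p = 0.00987), and Rasa1, a RAS GTPase-activating protein, fell by 1.09 (adjusted p = 0.0105). Grb2, the adaptor between receptors and SOS, fell by 0.70 (adjusted p = 0.0347), and Ksr2, a scaffold, fell by 0.66 (adjusted p = 0.0197). The WT level of Ksr2 was at the array median and its KO level, 2.50, was below it. Mknk2, a kinase that phosphorylates the translation factor EIF4E, rose by 0.72 (adjusted p = 0.00782).

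Of 36 other immediate-early genes measured in eWAT, 4 passed, all lower, against 10.7% of all genes, and the list's median difference was -0.30. Egr2, a relative of Egr1, was at 6.32, 6.22, 6.99 and 6.40 in WT and at 3.49, 5.86, 4.46 and 3.58 in KO. KO replicate 2 again lay nearest to WT, and Egr2 fell by 2.13 ± 0.463 (SE; adjusted p = 0.0176 in limma). Plk2, a polo-like kinase, fell by 1.23, the stress gene Gadd45b fell by 1.08 and the survival gene Mcl1 fell by 0.39 (adjusted p = 0.0204, 0.00981 and 0.0437). Of 22 other feedback and target genes, 6 passed, all lower, with a list median of -0.39.

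Dusp9, Dusp5 and Dusp7, further MAP kinase phosphatases, stood among these. Dusp9, an ERK phosphatase, was at 5.03, 6.31, 6.09 and 6.66 in WT and at 3.82, 3.93, 3.47 and 3.32 in KO, so that the groups were well apart. It fell by 2.38 ± 0.310 (SE; adjusted p = 0.0072 in limma), and Dusp5 and Dusp7 fell by 1.21 and fell by 0.91 (adjusted p = 0.0184 and 0.006). Spred1, a RAS pathway inhibitor, fell by 0.99 and the cell cycle gene Ccnd1 fell by 0.93 (adjusted p = 0.0164 and 0.0123). Of 30 upstream receptors and adaptors 6 were higher and 6 lower, against the same 15.2% of all genes. Csf1r, the macrophage growth factor receptor and also one of the macrophage markers above, fell by 1.56, Prkcd fell by 1.48 and Pdgfra, a progenitor marker, fell by 1.13, while Fgfr2 rose by 1.14 and Met by 1.03 (adjusted p from 0.00987 to 0.0359). The WT level of Fgfr2, 2.84, lay below the median gene of the arrays.

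In liver 1 gene of the 4 lists passed, Kdr, a vascular growth factor receptor and endothelial marker, which fell by 0.86 (adjusted p = 0.0317 in limma), in a tissue where 3 of 5 endothelial markers were lower. The Kdr call was lost with quantile normalization (adjusted p = 0.057 in limma), with the methods' t-test and in 7 of the 8 fits with 1 array left out. In iWAT and BAT 0 of the 117 genes of the 4 lists passed in limma. At an unadjusted p below 0.05 there were 21 of 117 in iWAT, against 15.4% of all genes. In BAT there were 34 of 117, against 12.7% of all genes. After adjustment the methods' t-test called 0 of the 117 in every tissue, including eWAT, where limma called 31 (and 15.2% of all genes). With quantile normalization the eWAT calls of Grb2, Mcl1 and Pdgfra were lost as well (adjusted p = 0.0831, 0.17 and 0.0554 in limma). With 1 eWAT array left out, these calls each held in 1 of 8 fits, those of Plk2 and Csf1r in 4, and those of Ksr2 and Dusp5 in 5. Met held in 6, Egr2 and Spred1 in 7, and the other eWAT genes named from the lists in all 8.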

How the data were processed

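Total RNA of 32 tissue samples was biotin-labelled from 100 ng and hybridised to Affymetrix Mouse Gene 2.1 ST arrays. The deposited values are log2 expression per gene, 1 table per tissue, and how the authors corrected background, normalized and summarised probe sets is not given in the sources used here. Genes whose probe identifier was no whole number (840) were read as averages of probe sets. Rows with a blank or number-mangled name were left out (1 or 2 per table), leaving 24646 genes. Columns were mapped to samples by their names. KO and WT were compared within each tissue with limma 3.58.1 in R 4.3.3 (lmFit, eBayes, Benjamini-Hochberg over all genes). On simulated data, with 200 changed genes, 73 to 91% of changes of 1 log2 unit and 94 to 100% of changes of 2 units were found over all genes. The 10 genes vary more between mice than most genes, so these shares overstate what could be found for them. The simulated spread was drawn separately for each gene, without variation shared between genes. In the data, the deleted gene Gpr146 did not pass in iWAT or BAT (adjusted p = 0.221 and 0.0727 in limma). No counts exist for arrays, and 4 arrays per group limit the precision. Same-numbered WT and KO mice were not treated as pairs. The correlation of their deviations ran from -0.38 to 0.67, and whether the numbers pair mice was not settled.

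The 10 genes and the gene lists were chosen with earlier results of these data known. Named beside them were Gpr146, up to 5 genes per list and tissue with the largest change past the threshold, and the 5 genes most like Egr1 and Dusp6. Symbols Emr1 and Hras1 stand for Adgre1 and Hras, and Fosl1 and Trac were not measured. Exact permutation tests used pandas 2.3.3 and numpy 2.4.6, and 40 such tests of the 10 genes, not adjusted, were run. The same unadjusted test was also run in each tissue for Gpr146 and for the genes named from the lists. Alternatives were array weights, a trended robust prior, quantile normalization, equal array medians, leaving out the dimmer 50% of genes, a replicate block, the methods' unpaired t-test and leaving out each array. Leaving out the BAT arrays with high muscle genes, and rescaling for the single values and correlations, were added after seeing the data.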

Additional observations from a re-analysis of the deposited data

Results flagged for a closer look

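In each of the 80 groups of 4 arrays (10 genes, 4 tissues, 2 genotypes) the highest and the lowest value were compared with the rest of the group, and 5 groups held an array far from the others, where chance gives about 1 in 20. Fos in WT liver was at 5.92 in replicate 1, with the others at 3.59 to 3.73. Fos in WT eWAT was at 8.28 in replicate 3, with the others at 6.92 to 6.98, and without it the Fos difference in eWAT had an adjusted p of 0.167 in limma. Ier3 in KO BAT was at 4.40 in replicate 4, with the others at 4.90 to 4.97. Spry2 in KO iWAT was at 5.45 in replicate 4, with the others at 5.25 to 5.28. Spry4 in KO BAT was at 3.45 in replicate 1, with the others at 4.20 to 4.36.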

How the results depend on the processing

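Of the 10 genes in eWAT, 4 passed with array weights, 2 with dim genes left out, 3 with the replicate block and 0 with quantile normalization. The methods' t-test called 0 of them after and 2 before adjustment. Leaving out 1 array gave 2 without WT replicate 1, 5 without KO replicate 2 and 0 otherwise. In these fits 2300, 5429 and 1448 to 3211 of all genes passed. Of all 24646 genes in eWAT, 5295 passed with array weights, 3405 with the replicate block and 3740 with quantile normalization. With the dimmer 50% of genes left out, 3829 of the rest passed. The methods' t-test called 38 of all genes after and 6798 before adjustment. In BAT the methods' t-test called 1 before adjustment and leaving out 1 array gave 0 to 1, while liver and iWAT stayed at 0 under each alternative. Whether the replicate numbers pair the mice is not known. The block added Fos (adjusted p = 0.0307 in limma) and Dusp1 (0.035) in eWAT and changed no other call of the 10 genes. The cause of these shifts was not tested.

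Over all genes the counts were as follows. Liver passed 163 (252 with dim genes left out, 2 after and 2901 before adjustment with the methods' t-test, 41 to 300 with 1 array left out), of which 75.5% were lower and 65.4% after quantile normalization. In eWAT 3758 passed (38 and 6798 with the methods' t-test, 1448 to 5429 with 1 array left out). In iWAT 0 passed (1 with the replicate block, 1 and 3167 with the methods' t-test, 0 to 227 with 1 array left out). In BAT 7 passed (0 with quantile normalization, equal array medians, the replicate block or high-muscle arrays left out, 0 and 2803 with the methods' t-test, 0 to 80 with 1 array left out). Genes without overlap numbered 3 in the 40 comparisons. Of all genes, 7.78% in liver, 21.6% in eWAT, 8.15% in iWAT and 7.23% in BAT did not overlap in either direction. Under either rescaling of the arrays (quantile, medians) the 3 became 2. The 7 correlated pairs became 5 and 8 under these.

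Signs turned only for differences that did not pass. With array weights, Ier3 was 0.039 in eWAT and 0.11 in iWAT, Dusp1 0.090 and Etv5 -0.026 in iWAT. With quantile normalization, Ier3 was 0.14 in eWAT and 0.15 in iWAT, Dusp1 0.091, Spry2 0.0098 and Etv5 -0.065 in iWAT. With equal array medians, Egr1 was -0.0031 and Etv5 -0.018 in iWAT. Myc in BAT was -0.47 without the high-muscle arrays.

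Leaving out 1 array turned the sign of 14 of the 40 differences. In iWAT the ranges were -0.28 to 0.65 for Egr1, -0.87 to 0.17 for Fos, -0.31 to 0.068 for Junb, -0.19 to 0.22 for Ier3, -0.27 to 0.18 for Dusp1, -0.19 to 0.018 for Dusp6, -0.054 to 0.067 for Etv5 and -0.36 to 0.017 for Myc. In liver they were -0.47 to 0.41 for Fos, -0.35 to 0.059 for Dusp6 and -0.15 to 0.23 for Spry4. In eWAT they were -0.16 to 0.041 for Ier3 and -0.011 to 0.090 for Spry2, and in BAT -0.16 to 0.35 for Myc.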
